A study of Mus musculus with 12 samples.

Results

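The 8 fibrillar collagen chains described here were Col1a1, Col1a2, Col3a1, Col5a1, Col5a2, Col5a3, Col11a1 and Col27a1, chosen by gene name as members of the family. They were 8 of the 55487 genes listed in the count table, and all 8 passed the filter on low counts that left 14175 genes for testing. RNA was sequenced from myotubes of the C2C12 mouse line, a myoblast line of clonal origin whose cells fuse when serum is lowered. All myotubes had been differentiated for 5 days in 2% horse serum, and were then kept for 24 h with 4% horse serum or 4% STEM, which is what human embryonic stem cells secrete while partially differentiated, without the cells. Horse serum libraries carry the numbers 1 to 6 and STEM libraries 7 to 12, which makes 6 for each. Because STEM replaced horse serum, its addition and the withdrawal of horse serum cannot be told apart. The labels do not say whether the libraries came from separate cultures, so p-values measure only the spread between these libraries, which may be technical.

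Fibrillar collagens are secreted as procollagens, whose chains wind into a rod and assemble outside the cell into the banded fibrils that carry load in the connective tissue around muscle fibres. Type I collagen, made of Col1a1 and Col1a2 chains, and type III collagen, made of Col3a1 chains alone, form the bulk of these fibrils in muscle. Type V collagen (Col5a1, Col5a2 and Col5a3) and the related Col11a1 chain nucleate fibrils and limit their diameter, and Col27a1 belongs to a minor branch of the family best known from cartilage.

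The libraries held between 13285472 and 24536264 counts. Levels below are in CPM, the usual depth-scaled read count, on library totals adjusted by the TMM method, and the members ranged from 71 counts in a library for Col27a1 to 175201 for Col3a1. Myotube markers were abundant, with all 12 tested and a summed level of 7295 to 15530 CPM with horse serum and 11640 to 14670 CPM with STEM. Horse serum library 6 had the lowest myotube level of all libraries, 7295 CPM, against a median of 14720 CPM in its group, and it also had the highest Mki67, a proliferation marker, at 321.5 CPM. Ccna2, Ccnb1 and Cdh15 were also at the highest level of the horse serum group in that library. Top2a was not (386.0 CPM, against a group maximum of 413.9 CPM), and Pax7 (26.0 CPM) and Myf5 (15.9 CPM) were at the lowest level of the group. Of the 12 myotube markers, Myog (log2 fold change -0.29) and Myh8 (-1.25) were lower and Mymk (0.36) was higher with STEM. Of 8 myoblast markers, Myf5 (-0.42) and the proliferation genes Mki67 (-0.62), Top2a (-0.65) and Ccna2 (-0.60) were lower, all without overlap. Cdh15 (0.46) was higher. Myod1, Pax7 and the proliferation gene Ccnb1 (-0.14, edgeR adjusted p = 0.584) were not called. Over all tested genes, 36.4% were called in either direction, and 8.52% were lower with STEM without overlap between the groups. The summed level of the myoblast list was 1027 to 1557 CPM with horse serum and 1039 to 1166 CPM with STEM. Of 8 fibroblast markers, 6 were tested, 2 were higher (Dpt and Pi16) and 2 were lower (Cd34 and Ly6a) with STEM, and the summed level was 112.0 to 149.3 CPM with horse serum and 88.1 to 97.4 CPM with STEM. The fibroblast marker Thy1 was at no more than 0.0685 CPM in any library and the tendon marker Tnmd at no more than 0.0658 CPM. The cartilage markers Acan and Matn1 and the bone marker Ibsp were at 0 counts in all 12. Other markers of these lists were present. The fibroblast marker Pdgfra was at 9.32 to 24.8 CPM with horse serum and 16.7 to 19.5 CPM with STEM, and was not called. Cd34 was at 64.7 to 96.7 CPM with horse serum and 42.7 to 51.1 CPM with STEM. Of 5 tendon markers, 2 were tested, Scx (110.3 to 186.5 CPM over all libraries, not called) and Fmod, which was higher with STEM (2.14). Both tested of 8 cartilage markers, Sox9 (0.41) and Matn3 (2.02), were higher, at means of 11.2 and 2.33 CPM with STEM, and none of the 3 tested of 7 bone markers was called, with Runx2 at 11.5 to 29.5 CPM. The part of these cell-state markers in the collagen levels was not tested. Cells of a type becoming fewer and each cell holding less of an RNA cannot be told apart in these bulk samples.

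All chains share a repeating Gly-X-Y unit and, in their genes, short exons of 54 bp that hold whole units of it. In the longest coding transcript of each member in the GENCODE annotation of GRCm38, between 42.9% (Col1a1, 21 of 49) and 55.9% (Col27a1, 33 of 59) of the internal coding exons were 54 bp long. Over all protein-coding genes, 1140 of 157979 such exons (0.722%) had this length. The longest unbroken run of Gly-X-Y units held 337 to 344 units in 7 members and 217 in Col27a1. The first exon of this kind is shown for the 3 chains that rose with STEM and for Col3a1, the most abundant chain, which did not pass the test. The glycine codon that opens each Gly-X-Y unit is in capitals, 6 in each sequence, and glycine codons at the other positions are left in lower case. The exons lie at chr11:94939904-94939957 (+) for Col1a1, chr2:27965251-27965304 (+) for Col5a1, chr9:20801068-20801121 (-) for Col5a3 and chr1:45325360-45325413 (+) for Col3a1.
Col1a1: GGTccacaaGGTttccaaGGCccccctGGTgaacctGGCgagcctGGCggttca
Col5a1: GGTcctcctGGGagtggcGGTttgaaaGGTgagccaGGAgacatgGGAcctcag
Col5a3: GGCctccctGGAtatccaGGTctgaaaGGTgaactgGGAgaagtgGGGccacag
Col3a1: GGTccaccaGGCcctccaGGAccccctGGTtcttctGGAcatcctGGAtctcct

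The genes also differed in the base at the third codon position. The share of G or C at the third codon position over the whole coding sequence was 53.0% in Col5a3, 52.3% in Col5a1 and 42.3% in Col1a1. It was 28.4% in Col3a1, 29.4% in Col5a2, 32.7% in Col11a1 and 35.0% in Col1a2, while Col27a1 had the highest share, 56.9%. The 8 genes lie on 7 chromosomes, since Col3a1 (chr1:45311538-45349706, plus strand) and Col5a2 (chr1:45374321-45503282, minus strand) are neighbours.

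With STEM, 3 of the 8 chains rose and none fell, and the other 5 did not pass the test. The chains that rose were Col1a1, Col5a1 and Col5a3, by 1.64-fold, 1.64-fold and 1.49-fold. Calls here are genes whose p from the quasi-likelihood test of edgeR, Benjamini-Hochberg adjusted over all genes tested, was 0.05 or less. The share of members called, 37.5%, stood beside 36.4% of all tested genes called in either direction and 18.9% called higher. Groups of libraries did not overlap for 2 members, Col5a1 and Col5a3, where 17.2% of all tested genes had groups that did not overlap, 8.68% with STEM higher and 8.52% with STEM lower. The median log2 fold change was 0.34 over the 8 members and 0.012 over all tested genes. Fibrillar collagen reads made up 1.19% ± 0.097 (SD, n = 6) of all counts with horse serum and 1.36% ± 0.070 (SD, n = 6) with STEM. The ranges overlapped, at 1.077% to 1.36% with horse serum and 1.253% to 1.447% with STEM, and this share was not tested.

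**Figure D1:**
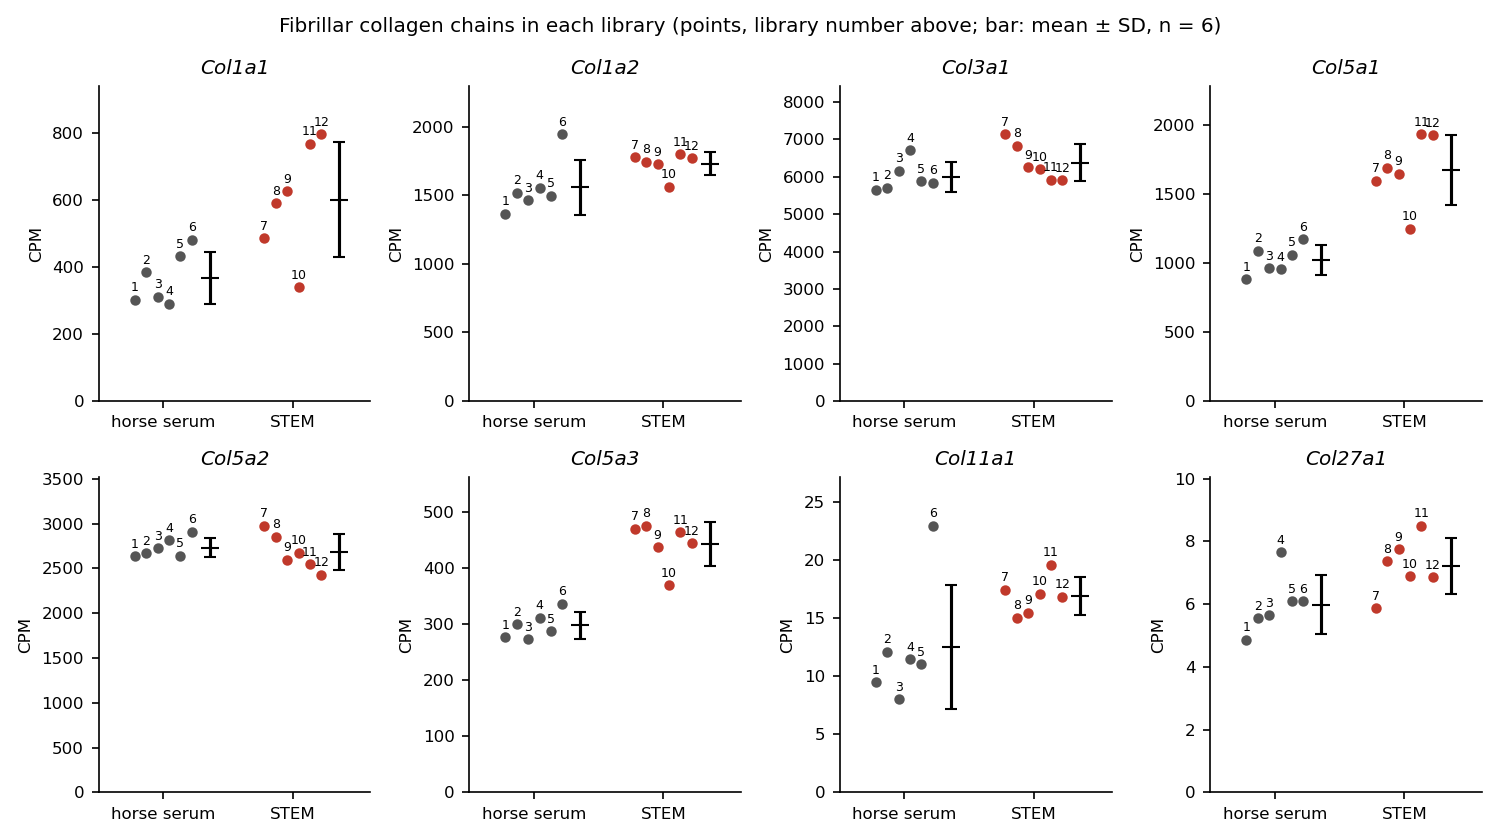
CPM of each of the 8 chains (vertical axis, starting at 0, a scale of its own for each chain) in the 6 horse serum libraries (grey) and the 6 STEM libraries (red), with library numbers above the points and mean ± SD bars beside them. All STEM points lie above all horse serum points for Col5a1 and Col5a3, and STEM library 10 is the lowest STEM point for Col1a1, Col1a2, Col5a1 and Col5a3.

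The type I chains moved unequally. Col1a1, on chromosome 11 (chr11:94936224-94953042, plus strand), encodes the α1 chain, of which type I collagen carries more copies than of the α2 chain. Its level was 289.9, 347.7 and 481.5 CPM (lowest, median and highest) with horse serum and 338.8, 607.5 and 796.4 CPM with STEM. The groups overlapped only through STEM library 10, and the other 5 STEM libraries were above every horse serum library. The log2 fold change was 0.71 (SE 0.20, edgeR adjusted p = 0.0161), and the means were 366.6 ± 78.5 and 600.5 ± 172.4 CPM (SD, n = 6 each). Without STEM library 10 it was 0.83 (edgeR adjusted p = 0.00199).

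Col1a2, the partner chain on chromosome 6 (chr6:4504814-4541544, plus strand), was at 1367, 1508 and 1947 CPM with horse serum and at 1563, 1758 and 1802 CPM with STEM. The highest library of all was horse serum library 6, so that no STEM library lay above the horse serum range. The log2 fold change of 0.15 (SE 0.074, edgeR adjusted p = 0.124) did not pass the test, and its 95% interval ran from -0.0060 to 0.31. This call depended on horse serum library 6, without which the log2 fold change was 0.23 (edgeR adjusted p = 0.000522).

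Col3a1, the only chain of type III collagen, had the highest level of the family. It was at 5655, 5863 and 6712 CPM with horse serum and at 5918, 6234 and 7145 CPM with STEM, and the groups overlapped over most of their range. Its log2 fold change was 0.090 (SE 0.062, edgeR adjusted p = 0.278), with a 95% interval of -0.042 to 0.22.

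Among the type V chains the split ran between Col5a2 and the other members. Col5a1, on chromosome 2 (chr2:27886425-28039514, plus strand), encodes the chain found in nearly all type V collagen. It was at 881.0, 1012 and 1173 CPM with horse serum and at 1250, 1671 and 1936 CPM with STEM. Its lowest STEM library, library 10, was above the highest horse serum library, and the log2 fold change was 0.71 (SE 0.099, edgeR adjusted p = 7.58e-05). Col5a3, a chain of narrower distribution on chromosome 9 (chr9:20770050-20815067, minus strand), had a lower level with a narrower spread. It was at 273.7, 294.5 and 336.5 CPM with horse serum and at 370.2, 454.4 and 476.2 CPM with STEM, again without overlap. The log2 fold change was 0.57 (SE 0.067, edgeR adjusted p = 1.72e-05).

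Col5a2, the usual partner of Col5a1, was at 2633, 2698 and 2910 CPM with horse serum and at 2430, 2638 and 2978 CPM with STEM. The groups overlapped, with 3 STEM libraries below and 1 above the whole horse serum range. Its log2 fold change was -0.03 (SE 0.056, edgeR adjusted p = 0.727) and its 95% interval, -0.15 to 0.091, does not reach the fold changes of Col5a1 or Col5a3.

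Both minor chains were scarce. Col11a1, which joins type V chains in fibrils outside cartilage, had 114 to 448 counts per library. Its level was 8.04, 11.2 and 23.0 CPM with horse serum and 15.02, 16.97 and 19.59 CPM with STEM. Every STEM library was above every horse serum library except library 6, which held the highest value of all. Its log2 fold change was 0.42 (SE 0.21, edgeR adjusted p = 0.127), and without horse serum library 6 it was 0.70 (edgeR adjusted p = 7.92e-06). Col27a1 had 71 to 144 counts per library, at 4.87, 5.87 and 7.65 CPM with horse serum and 5.87, 7.13 and 8.51 CPM with STEM. The groups overlapped, and the log2 fold change of 0.26 (SE 0.12, edgeR adjusted p = 0.0961) passed the test only without horse serum library 4, at 0.34 (edgeR adjusted p = 0.0301).

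Library 6 of the horse serum group, the library with the lowest myotube and highest Mki67 levels, thus set the calls of Col1a2 and Col11a1. Without it, 5 of the 8 chains were called and all were higher with STEM, while 50.8% of all tested genes were called in either direction (7245 of 14267). Leaving out library 6 and STEM library 10 together, a choice made after the values were seen, also gave 5, beside 50.3% of all tested genes (7138 of 14186). The part of the cell makeup of library 6 in its collagen levels was not tested.

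**Figure D2:**
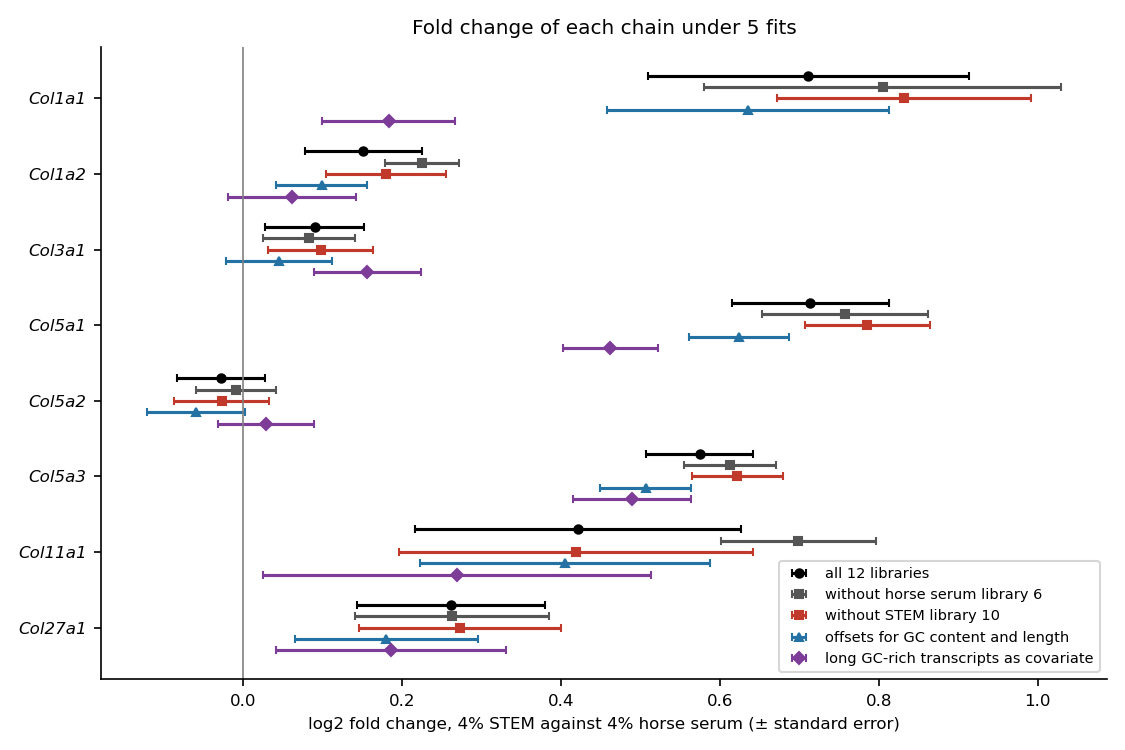
Log2 fold change of each chain with STEM (horizontal axis, ± standard error) from edgeR with all 12 libraries, without horse serum library 6, without STEM library 10, with offsets for GC content and length, and with the level of long GC-rich transcripts as a covariate. Col5a1 and Col5a3 stay at or above 0.46 in the 5 fits, Col1a1 falls from 0.71 to 0.18 with the covariate, and Col11a1 moves to 0.70 without horse serum library 6.

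Levels of different chains were compared per kilobase of the longest coding transcript. On that scale the order was the same in both groups. Col3a1 was first, at 1078 CPM per kb with horse serum and 1147 with STEM, followed by Col5a2 (412 and 405) and Col1a2 (291 and 324). Col5a1 (122 and 199), Col1a1 (61.8 and 101) and Col5a3 (48.7 and 72.5) came next, and Col11a1 (1.63 and 2.21) and Col27a1 (0.786 and 0.948) were last. Col1a1 and Col5a3 were the only neighbours in this order whose ranges over the libraries overlapped, in both groups. The order depends on the length used for each gene. Per kilobase of all annotated exons joined, Col1a2 was at 125 with horse serum and 139 with STEM, below Col5a1 in the STEM group (197) and close to it with horse serum (120).

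Of the summed per-length level of the 8 chains, Col3a1 held 53.5% ± 2.51 with horse serum and 50.9% ± 2.42 with STEM (SD, n = 6 each). Col5a2 went from 20.5% ± 0.475 to 17.97% ± 0.977, without overlap between the groups, and Col1a2 from 14.4% ± 1.34 to 14.4% ± 0.621. The shares of the chains that rose were 6.03% ± 0.550 and 8.86% ± 1.32 for Col5a1, 3.07% ± 0.615 and 4.50% ± 1.32 for Col1a1, and 2.41% ± 0.120 and 3.22% ± 0.172 for Col5a3. Shares sum to a fixed total, so that a rise of any chain lowers the others.

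Ratios of chains within a library do not depend on how libraries are scaled, and 6 of them were compared between the groups by a two-sided exact permutation test. Such ratios can still depend on GC content, for which they were not corrected. The level of the most GC-rich genes less that of the most GC-poor genes did not overlap between the groups. On the log2 scale it was -0.082 to -0.014 with horse serum and 0.027 to 0.100 with STEM. With offsets for GC content and length, the log2 fold changes were 0.62 for Col5a1 (58.0% GC) and -0.059 for Col5a2 (49.6%). The part of GC content in the ratios was not tested. The ratio of Col5a1 to Col5a2, the pair that shares most type V molecules, was 0.295 ± 0.0271 with horse serum and 0.497 ± 0.0998 with STEM. All 6 STEM libraries were above all horse serum libraries, and the log2 difference of 0.74 had an exact p = 0.00216, the smallest that 6 against 6 libraries can give (adjusted over the 6 ratios, p = 0.013). Col1a1 to Col1a2, the pair of type I collagen, went from 0.212 ± 0.0321 to 0.310 ± 0.0802. Its log2 difference of 0.52, with 4 of 6 STEM libraries above the horse serum range, had an exact p = 0.0238 and did not pass after adjustment (p = 0.0714). Col3a1 to Col1a1 went from 18.2 ± 4.48 to 12.4 ± 4.52, a log2 difference of -0.59 (exact p = 0.0455, adjusted p = 0.091). Both of these ratios passed without STEM library 10, at log2 differences of 0.65 (exact test, adjusted p = 0.0195) and -0.74 (exact test, adjusted p = 0.0303).

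The other ratios did not pass the test. Col5a3 to Col5a1, the chains of type V that both rose, was 0.403 ± 0.0300 and 0.368 ± 0.0382 (exact test, adjusted p = 0.178). Col11a1 to Col5a1 was 0.0132 ± 0.00426 and 0.0113 ± 0.00203 (exact test, adjusted p = 0.464). Col5a1 to Col1a1 was 2.01 ± 0.242 and 2.05 ± 0.349 (exact test, adjusted p = 0.846), and the sign of this difference changed with single libraries left out.

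**Figure D3:**
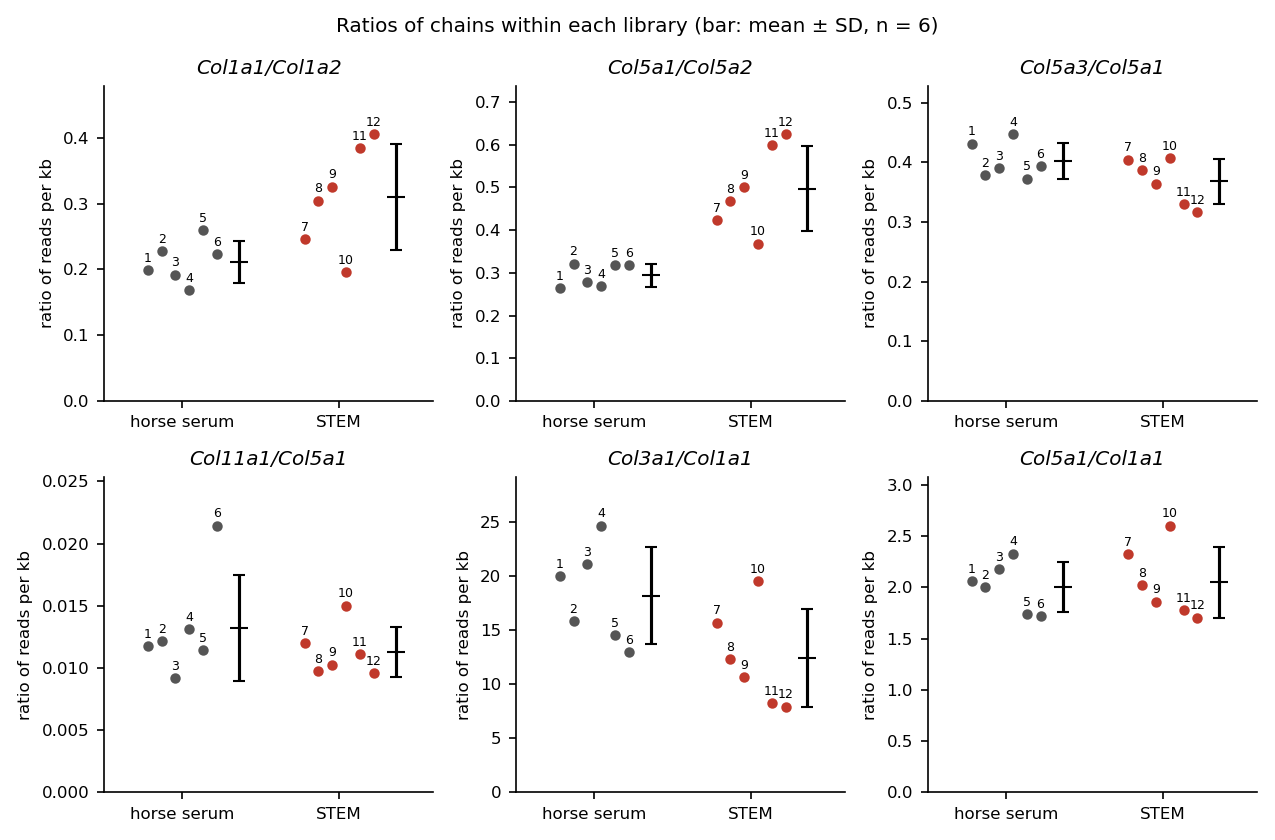
Ratio of the per-length levels of 6 pairs of chains (vertical axes, starting at 0) in each horse serum (grey) and STEM (red) library, with mean ± SD bars. The 6 STEM values of Col5a1/Col5a2 lie above the 6 horse serum values, and the STEM values of Col1a1/Col1a2 run from 0.195 in library 10 to 0.406 in library 12.

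Col1a1 and Col5a1 went up and down together from library to library. Over the 6 STEM libraries Pearson's r of their log2 CPM was 0.98 (exact permutation p = 0.00556, adjusted over 12 relations p = 0.0667) and Spearman's rho was 0.886 (exact permutation p = 0.0333). Over the 6 horse serum libraries r was 0.915 (exact permutation p = 0.0236, adjusted p = 0.142) and rho was 0.886 (exact permutation p = 0.0333). Without the 2 libraries farthest from the median r was 0.929 and 0.903. None of the 12 relations, 6 pairs of chains in 2 groups, passed after adjustment.

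Genes much like the mean of the type I chains in this respect were Runx2, Tnrc18, Plec and Lrp1. The measure was Pearson's r over the 12 libraries, after subtraction of each group's mean, with the mean log2 CPM of Col1a1 and Col1a2. It was 0.982, 0.977, 0.976 and 0.976 for these genes, 0.966 for Col5a1, 0.731 for Col5a3, -0.165 for Col5a2 and -0.334 for Col3a1. Of the chains in the mean itself, Col1a1 had 0.977 and Col1a2 had 0.781, so the mean followed Col1a1 more closely. In a smaller set of these libraries r was 0.981 for Col1a1, 0.958 for Col5a1, 0.618 for Col1a2 and 0.302 for Col5a3. The points share library depth and composition, and the values are a description. Of these 4 genes Plec was called, higher with STEM by 0.62 on the log2 scale (edgeR adjusted p = 0.0065), and Runx2, Tnrc18 and Lrp1 did not pass.

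Long transcripts rich in G and C moved with these levels. The class held the 355 tested protein-coding genes outside the collagens with a longest transcript of at least 5000 bp and at least 55% GC, a definition made after the values were seen. Its mean log2 deviation per library from the mean over all libraries was -0.0806 ± 0.0630 with horse serum and 0.0806 ± 0.156 with STEM (SD, n = 6 each). It was lowest in horse serum library 1 (-0.148) and STEM library 10 (-0.138) and highest in STEM libraries 11 (0.223) and 12 (0.290). The libraries with the lowest and highest Col1a1 in the STEM group were thus also those with the lowest and highest level of this class. Of the 355 genes, 115 (32.4%) were higher and 34 (9.58%) lower with STEM, with a median log2 fold change of 0.18. Of the 2478 other long genes, under 55% GC, 17.6% were higher and 20.8% lower, with a median of 0.0064. Col1a1 (58.9% GC), Col1a2 (55.7%), Col5a1 (58.0%), Col5a3 (61.6%) and Col27a1 (59.4%) meet the length and GC criteria, and Col3a1 (52.5%), Col5a2 (49.6%) and Col11a1 (48.0%) do not.

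With the level of this class as a covariate in edgeR, the log2 fold change of Col1a1 was 0.18 (SE 0.084, adjusted p = 0.12) and no longer passed. Col5a1 was at 0.46 (SE 0.059, edgeR adjusted p = 8.99e-05) and Col5a3 at 0.49 (SE 0.074, edgeR adjusted p = 0.000332), and both stayed called. The level of the class itself differed between the groups, so its part in the rise of Col1a1 and that of STEM cannot be told apart.

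**Figure D4:**
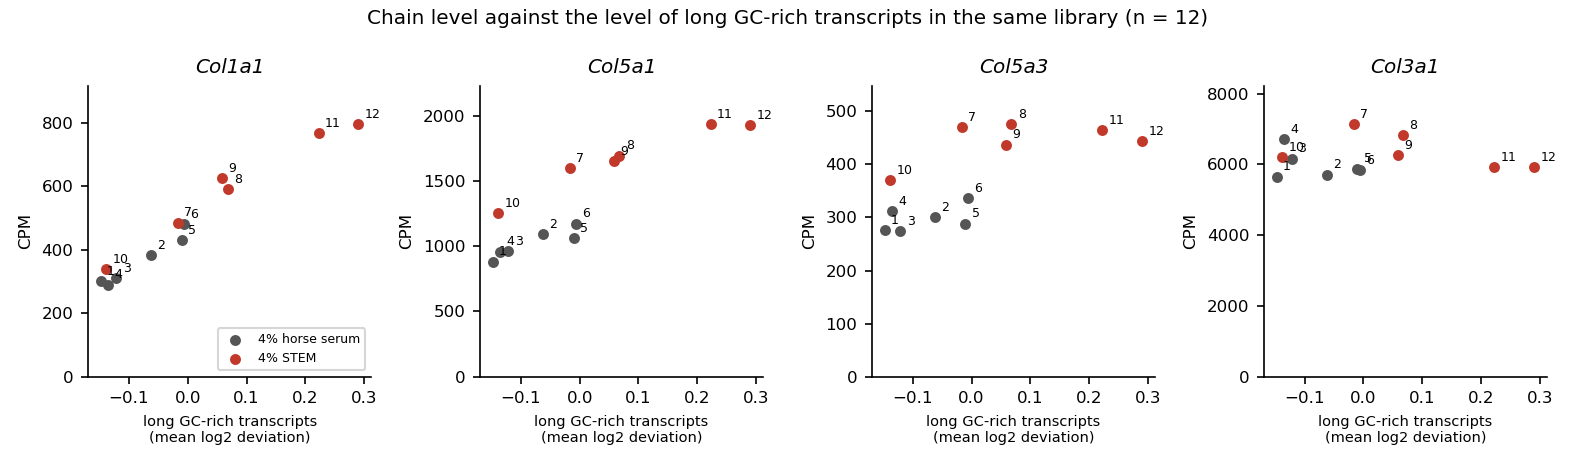
CPM of Col1a1, Col5a1, Col5a3 and Col3a1 (vertical axes, starting at 0) against the mean log2 deviation of 355 long GC-rich transcripts in the same library (horizontal axis), for 6 horse serum (grey) and 6 STEM (red) libraries with their numbers. Col1a1 points of both groups lie close to a common line, while at like horizontal positions the Col5a1 and Col5a3 points of STEM lie above those of horse serum.

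Upstream sequence was compared between the chains without overlap between the groups, Col5a1 and Col5a3, and Col3a1. The 250 bases before the RefSeq start (GRCm38.p6) are shown for these. Such a sequence was available for 6 of the 8 members, not for Col1a1 or Col5a2. Capitals mark motifs searched on both strands, with their share among 32851 promoters of the same length. The TATA box, written TATAAA, was found in 12.4% of them. The CCAAT motif was found in 33.8%. The GC box, written GGGCGG, was found in 32.7%. The windows are chr2:27886175-27886424 (+) for Col5a1, chr9:20815068-20815317 (-) for Col5a3 and chr1:45311288-45311537 (+) for Col3a1.
Col5a1: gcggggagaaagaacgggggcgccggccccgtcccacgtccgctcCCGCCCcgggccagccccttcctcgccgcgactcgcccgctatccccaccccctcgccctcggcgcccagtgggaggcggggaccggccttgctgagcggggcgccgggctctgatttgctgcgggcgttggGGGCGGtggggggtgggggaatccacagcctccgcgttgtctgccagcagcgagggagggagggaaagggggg
Col5a3: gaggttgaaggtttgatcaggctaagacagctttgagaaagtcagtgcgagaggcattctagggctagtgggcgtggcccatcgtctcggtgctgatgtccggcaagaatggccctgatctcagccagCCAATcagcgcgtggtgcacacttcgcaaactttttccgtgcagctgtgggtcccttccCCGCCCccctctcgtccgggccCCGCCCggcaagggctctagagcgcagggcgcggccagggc
Col3a1: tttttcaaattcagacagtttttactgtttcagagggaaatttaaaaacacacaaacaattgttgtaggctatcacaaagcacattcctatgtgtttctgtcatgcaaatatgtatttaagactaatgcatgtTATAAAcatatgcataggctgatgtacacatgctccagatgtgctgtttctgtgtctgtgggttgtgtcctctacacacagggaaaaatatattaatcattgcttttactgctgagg

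The windows of Col5a1 and Col5a3 held 2 GC boxes each, and that of Col5a3 also held a CCAAT motif. Chains that were not called had such motifs too. The window of Col11a1 held 2 GC boxes and a CCAAT motif, at 62.4% GC, and that of Col1a2 held 2 GC boxes and a CCAAT motif. The RefSeq start of Col1a2 lies 804 bp from its GENCODE start, and the calls of both chains depended on horse serum library 6. No window was available for Col1a1, which rose, and the part of the motifs in the changes was not tested. The Col3a1 window held no GC box and no CCAAT motif, and had a TATA box whose first base lies 117 bases before the start. Its GC content was 35.2%, against 76.4% for Col5a1 and 62.8% for Col5a3.

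Most members also carry matches to the microRNA-29 family, a group of microRNAs known to bind collagen messages. The mature sequences from RefSeq (GRCm38.p6) are shown with the seed, bases 2 to 8, in capitals, which is the same in all of them.
mmu-miR-29a-3p: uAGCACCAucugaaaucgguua
mmu-miR-29b-3p: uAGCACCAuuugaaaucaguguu
mmu-miR-29c-3p: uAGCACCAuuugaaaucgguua

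A match to the seed, TGGTGCT on the message strand, was found in the annotated 3′ UTR of 7 of the 8 members and in 13.0% of 20952 3′ UTRs. Col5a1 had 4 matches, Col5a3 had 3, Col11a1 had 2, Col1a1, Col3a1, Col5a2 and Col27a1 had 1 each, and Col1a2 had none. Per kilobase of 3′ UTR this was 3.82 for Col5a3, 1.6 for Col5a1 and 0.567 to 1.06 for the other members with a match, against 0.107 over all 3′ UTRs. The first match, in capitals, is shown for the chains that rose, at chr11:94952524-94952545 (+) in Col1a1, chr2:28037990-28038011 (+) in Col5a1 and chr9:20770780-20770801 (-) in Col5a3. MicroRNAs were not analysed here, and chains with and without a change carry such matches.
Col1a1: tgggaaggaatttcTGGTGCTa
Col5a1: taactatgaacattTGGTGCTg
Col5a3: ccacatgggctcctTGGTGCTg

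The genes that make, export and process these chains were counted in lists. Lists are described by the number called in each direction, beside the 18.9% of all tested genes called higher and the 17.4% called lower, and single values without a unit are log2 fold changes. The 3 remaining fibrillar chains were Col24a1, Col11a2 and Col2a1. Col24a1 rose from 2.05 ± 0.564 to 4.84 ± 1.02 CPM (log2 fold change 1.24, edgeR adjusted p = 0.000177) and Col11a2 from 2.62 ± 0.493 to 4.48 ± 0.409 CPM (0.77, edgeR adjusted p = 0.000373), both without overlap. Col2a1, the main chain of cartilage, had at most 2 counts in a library and was not tested.

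Of the 18 tested genes of procollagen modification and folding, 10 were higher, 1 was lower and 7 did not pass, with a median log2 fold change of 0.16. P3h1, a prolyl 3-hydroxylase of fibrillar collagen, rose from 68.0 ± 3.74 to 103.8 ± 5.86 CPM (0.61, edgeR adjusted p = 5.56e-07). The prolyl isomerases Fkbp10 and Fkbp14 rose by 0.54 and 0.52 on the log2 scale, and Serpinh1, the collagen chaperone HSP47, by 0.37. The gene that fell was P3h2, best known for acting on basement membrane collagen, at -2.14. Of 11 export genes, 6 were higher, among them Mia2 (0.46), Sec13 (0.39) and Creb3l1 (1.22), a transcription factor of the secretory pathway, and Sar1b was lower (-0.25).

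Propeptide removal and crosslinking had 5 of 11 genes higher and 2 lower. Bmp1, which cuts the C-propeptide, rose from 159.1 ± 14.4 to 257.4 ± 5.35 CPM (0.69, edgeR adjusted p = 4.2e-07), and Adamts2, which cuts the N-propeptide, by 0.56. Adamts14, another N-propeptide protease, rose by 0.32. Of the lysyl oxidases, Loxl4 rose by 0.73 and Loxl1 by 0.35, while Loxl2 and Loxl3 were lower, at -0.62 and -0.15. Loxl3 did not pass without horse serum library 2 or 5 or STEM library 7, 8, 9, 10 or 11 (log2 fold change -0.16 to -0.14, edgeR adjusted p up to 0.086). Among 15 fibril assembly partners, 7 were higher and 3 lower. Col14a1, a collagen of the fibril surface, went from 24.5 ± 5.07 to 2.75 ± 0.485 CPM (-3.14, edgeR adjusted p = 1.5e-08), and the fibril-binding proteoglycan Fmod from 4.87 ± 1.44 to 21.8 ± 4.42 CPM (2.14, edgeR adjusted p = 1.01e-06). Sparc, which binds collagen in the matrix, rose by 0.49. The other genes of the list that were lower were Postn (-0.40) and the fibril-surface collagen Col12a1 (-0.37).

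Of 9 genes of collagen degradation and uptake, 3 were higher and 4 lower. Timp3, an inhibitor of metalloproteinases, rose from 252.9 ± 11.6 to 494.3 ± 24.5 CPM (0.97, edgeR adjusted p = 4.76e-09), while the collagen uptake receptor Mrc2 and the metalloproteinase Mmp16 were at -0.47 and -0.85. Timp2 and Mmp15 were the other genes that rose (0.36 each), and Timp1 (-0.42) and Mmp2 (-0.18) the other genes that fell. Of 7 collagen receptors, 4 were higher, with Ddr1 at 0.49, Ddr2 at 0.42, Itga11 at 0.84 and Adgrg1 at 1.05, and Itgb1 was lower at -0.17. Itgb1 did not pass without horse serum library 1, 2 or 3 or STEM library 9, 11 or 12 (-0.16 in each, edgeR adjusted p up to 0.0591). Regulators of fibrillar collagen genes had 7 of 27 higher and 6 lower. Tgfb2 (0.86), Tgfb3 (0.34) and the transcription factor Klf4 (0.79) were higher. Ccn2, a matrix protein induced by TGF-β, and Larp6, which binds the 5′ stem-loop of type I collagen messages, were lower at -0.82 and -0.58.

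Collagens of other classes are given for comparison. Of 5 tested collagen VI and VIII chains 4 were higher, Col6a1 (0.75), Col6a2 (1.32), Col6a3 (1.23) and Col8a1 (0.17). Col8a1 did not pass without horse serum library 1 or 4 or STEM library 7, 8, 9, 11 or 12 (0.15 to 0.17, edgeR adjusted p up to 0.0859). Of 3 tested basement membrane chains 2 were higher, Col4a1 (0.25) and Col4a2 (0.32).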

How the data were processed

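Ribosomal-RNA-depleted, stranded total RNA libraries were sequenced in paired reads, and the authors deposited raw read counts per Ensembl gene for GRCm38, 1 column per library, with no normalization. The submitters' processing notes name STAR 2.7.3a, featureCounts 1.6.3 and DESeq2 1.26.0. The annotation release and the strand setting are not given in the sources used here, so reads shared with an overlapping or antisense gene cannot be separated. Overlaps with other genes' exons covered at most 1.44% of a member's exons.

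The members, gene lists and tests were chosen with earlier results of these data known. Counts were tested with edgeR 4.0.16 in R 4.3.3 (robust glmQLFit, glmQLFTest, TMM factors, filterByExpr), which kept 14175 genes, with Benjamini-Hochberg adjustment and a threshold of 0.05. Standard errors were derived from the F statistic. The script was tested on simulated data with known changes. Log2 CPM used a prior count of 2. Ratios were compared by exact permutation tests written with NumPy 2.4.6. The labels give no batch. Replicates of a group differed by more than counting noise in the pairs computed. Among these, the smallest chi-square of a pair, divided by its degrees of freedom, was 3.63. No value was obtained for horse serum libraries 1 and 5, 2 and 3, or 2 and 6.

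The genes named were every member, the 3 called genes with the lowest p-values of each list, genes of a list direction with 5 or fewer members, and the 5 genes most like the mean of Col1a1 and Col1a2. A gene that meets this rule is not reported here. Serpinh1, Ccn2, Larp6 and the marker genes given singly were named after their values were seen. Gene models came from GENCODE M21, and promoters and microRNAs from RefSeq.

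Alternatives were DESeq2 size factors, library totals, upper quartile factors, no low-count filter, at least 10 counts in every library, DESeq2 1.42.0, limma-voom 3.58.1, thinning to the lowest total, an adjusted p of 0.01, a test against a 1.5-fold change, a pseudocount of 2 in ratios, and each library left out. Offsets for GC content and length, the covariate of long GC-rich transcripts, leaving out horse serum library 6 and STEM library 10 together, and union exon lengths were added after the data were seen.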

Additional observations from a re-analysis of the deposited data

Results flagged for a closer look

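Among 28 groups of 6 libraries checked for a library far from the others (the 8 chains and 6 ratios in both groups), 5 held such a library. Chance flags about 1 in 20 independent groups, but these groups share chains and libraries, so the count cannot be set against that share. A library was taken as far from the others when its gap to the nearest exceeded Dixon's critical share of the group's range. Horse serum library 6 was the highest of its group for Col1a2 (1947 CPM, next 1556), for Col11a1 (22.96 CPM, next 12.12) and for the ratio of Col11a1 to Col5a1 (0.02145, next 0.0131). STEM library 10 was the lowest of its group for Col1a2 (1563 CPM, next 1729) and for Col5a3 (370.2 CPM, next 437.2). In library 6 the summed level of myotube markers was 7295 CPM, the lowest of the 12 libraries, and in library 10 the mean log2 deviation of long GC-rich transcripts was -0.138, the lowest of the STEM group.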

How the results depend on the processing

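No paired analysis was possible because the labels give no pairing of the libraries. Col5a1 and Col5a3 stayed called and higher with STEM under every alternative run except the test against a 1.5-fold change, with log2 fold changes of 0.46 to 0.82 and 0.49 to 0.66. Col3a1 and Col5a2 were called under none. Col1a1 stayed called in all 12 fits without a single library (0.61 to 0.83), and did not pass with no filter on low counts (0.70, edgeR adjusted p = 0.0527), at an adjusted p of 0.01 (0.71, edgeR adjusted p = 0.0161), against a 1.5-fold change (0.71) or with long GC-rich transcripts as a covariate (0.18). That covariate also turned Col5a2 from -0.03 to 0.029. Against a 1.5-fold change no chain was called, with Col5a1 at 0.71 and Col5a3 at 0.57, and 268 of all genes were called, 117 of them higher. An adjusted p of 0.01 left 3266 genes, 1676 of them higher.

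Without a single library, the number of chains called ran from 3 to 5, Col1a2 from 0.12 to 0.23, Col11a1 from 0.32 to 0.70 and Col27a1 from 0.21 to 0.34. Without horse serum library 6 and STEM library 10 together, 5 chains were called beside 50.3% of all tested genes, Col1a2 was 0.25 (edgeR adjusted p = 0.000101) and Col11a1 was 0.69 (edgeR adjusted p = 1.62e-05). In the ratios, single libraries left out gave log2 differences of 0.44 to 0.65 for Col1a1/Col1a2, of -0.74 to -0.48 for Col3a1/Col1a1 and of -0.049 to 0.073 for Col5a1/Col1a1. The last was reversed without horse serum library 5 (-0.016), horse serum library 6 (-0.019), STEM library 7 (-0.016) or STEM library 10 (-0.049). Without both libraries 6 and 10 the differences were 0.67, -0.83 and -0.091, and the first 2 passed (exact permutation test, adjusted p = 0.0317 for each).

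Lists kept their counts within 1.5 times under the alternatives run, except against a 1.5-fold change. There, 1 remaining fibrillar chain, 1 modification, 0 export, 0 propeptide and crosslinking, 3 assembly, 1 degradation, 1 receptor, 1 regulator and 0 basement membrane genes were called. Of the 46 list genes named, 36 then lost their call. Under the other alternatives Sar1b, Loxl2, Loxl3, Postn, Timp1, Itgb1 and Col8a1 lost theirs in at least 1, and the remaining named list genes kept theirs. Col27a1 had 71 to 144 counts per library and Col11a1 114 to 448, the lowest of the chains. Intervals cover these libraries only, and per-length levels depend on the transcript chosen. The cause of these changes was not tested.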
